A study of Mus musculus with 2 samples.

Results

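Bone morphogenetic proteins (BMPs) and the genes that respond to them were followed through the cell classes of the embryonic mouse dorsal telencephalon. The 10 genes comprise 4 ligand genes (*Bmp4*, *Bmp5*, *Bmp6* and *Bmp7*), 2 type I receptor genes (*Bmpr1a* and *Bmpr1b*) and the 4 Id genes (*Id1*, *Id2*, *Id3* and *Id4*). They were chosen by gene symbol, each matched 1 row of the 32285 genes in the deposited tables. Single-cell RNA was measured in 2 libraries, here called replicates 1 and 3 after the last digit of their titles. The titles begin with the label EoMltt3 and are otherwise the same, including the number before that digit. What the shared number stands for is not stated. The libraries were made from papain-dissociated dorsal telencephalon of mouse embryos at embryonic day (E) 14.5, with the 10x Genomics 3' kit v3.1. Both libraries carry the genotype WT and form a single group, which the series title places among control animals of the Eomes-Cre line. The labels do not say whether these embryos carried a Cre allele or how many embryos entered each library. With 1 group, the comparisons lie between cell classes and between cell cycle phases within the same 2 libraries.

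BMPs are secreted ligands of the TGF-beta superfamily. They bind pairs of type I and type II serine/threonine kinase receptors, whose activity passes to receptor-regulated SMAD proteins, and these enter the nucleus with SMAD4 and act on target genes. The Id genes are among the classical targets. Their products dimerise with basic helix-loop-helix factors but lack a DNA-binding region, and they are known for holding proneural factors in check in neural progenitors. In the developing forebrain, the cortical hem and choroid plexus at the dorsal midline and the meninges around the cortex are known sources of BMPs.

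Replicate 1 held 6163 cell barcodes and 64182006 unique molecular identifiers (UMIs, which count captured RNA molecules), and replicate 3 held 8870 barcodes and 93295807 UMIs. After filters on UMIs, mitochondrial RNA and predicted doublets, 5149 and 6854 cells were kept. The libraries shared 23 barcodes. Clustering, with the 10 genes and 49 other BMP pathway genes left out, gave 46 clusters, which were named from marker lists. Of the classes compared here, radial glial cell (RGC)-like cells numbered 724 and 1583 in replicates 1 and 3, intermediate progenitor cell (IPC)-like cells 876 and 1450, and projection neuron-like cells 2257 and 2610. Rarer classes were meningeal-like (48 and 141 cells), pericyte-like (39 and 45) and endothelial-like (25 and 50). Cajal-Retzius-like cells numbered 39 and 79. The dissected dorsal tissue also held cells with markers of the ventral telencephalon: interneuron-like cells of the medial ganglionic eminence (MGE; 333 and 218 cells) and of the caudal one (CGE; 227 and 21), while 116 cells with markers of the lateral one were in replicate 1 and 0 in replicate 3. A further cluster of 13 and 88 cells had 8 of 8 hem markers and 7 of 8 choroid plexus markers on. In this clustering hem thus had no class of its own, and the cluster is called the hem and choroid plexus cluster and keeps no cell type name. A stricter cell filter parted a hem-like class of 11 and 51 cells from a choroid plexus-like class of 0 and 20, and with predicted doublets kept a hem-like class of 13 and 108 cells was obtained. Levels are given as counts per 1000000 UMIs (CPM) of the sum over the cells of a class, in replicate 1 and then in replicate 3. Adjusted p-values are from edgeR's quasi-likelihood test on these sums, with the standard error (SE) beside each log2 fold change. Nothing states that the libraries came from separate litters, so the tests measure the spread between the 2 libraries. Fewer cells that express a gene and less RNA per cell cannot be told apart in a sum over a class.

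The 4 ligand genes were concentrated in meningeal-like cells. These cells made up 0.932% and 2.06% of the kept cells. Of each ligand's UMIs over all kept cells they held 69.0% and 51.1% for *Bmp4*, 67.7% and 82.7% for *Bmp5*, 86.7% and 79.5% for *Bmp6*, and 69.7% and 59.5% for *Bmp7*. The hem and choroid plexus cluster was the other main site of *Bmp4*, with 16.7% and 43.5% of its UMIs.

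*Bmp4* (chr14:46383525-46390669, GRCm38.p6) encodes a ligand of the BMP2/4 group. It was the sparsest of the 10, with 42 and 131 UMIs in all kept cells. Its level was 46.2 and 43.7 CPM in the hem and choroid plexus cluster and 40.7 and 39.8 CPM in meningeal-like cells. Those ranges were next to each other without overlapping, but the difference did not pass the test (log2 fold change −0.03 for meningeal-like cells against the cluster, adjusted p = 0.989). In pericyte-like cells it was 8.64 CPM in replicate 1 and 0 in replicate 3. Endothelial-like and Cajal-Retzius-like cells had it in replicate 3 only, at 1.41 and 1.03 CPM. RGC-like cells held 1 UMI, so that the ratio of meningeal-like to RGC-like cells, 1184, had a counting interval of 208 to 47252.

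*Bmp5* (chr9:75775365-75900316) encodes a ligand of the BMP5/6/7 group. Its levels were 235.7 and 255.4 CPM in meningeal-like cells and 112.4 and 63.3 CPM in pericyte-like cells. It was lower in the hem and choroid plexus cluster (6.61 and 16.1 CPM) and in Cajal-Retzius-like cells (7.93 and 12.4 CPM), whose ranges overlapped. IPC-like, projection neuron-like and RGC-like cells were all below 1 CPM. No *Bmp5* UMI was found in endothelial-like, MGE, CGE or red blood cell-like cells, which in the 75 endothelial-like cells allows a level of up to 2.45 CPM, by the limit that a count of 0 sets at 3 UMIs.

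*Bmp6* (chr13:38345716-38500314) belongs to the same ligand group. Its level was 860.0 CPM in meningeal-like cells of replicate 1 and 405.6 CPM in those of replicate 3. The hem and choroid plexus cluster followed with 72.7 and 105.7 CPM, and no other named class passed 4 CPM in either replicate. Pericyte-like cells, which had *Bmp5*, held no *Bmp6* UMI. Within the neuronal lineage, *Bmp6* stood at 18.2 and 7.66 CPM in an IPC-like cluster led by *Tfap2d* and *Fign*, and at 14.6 and 6.41 CPM in a projection neuron-like cluster led by *Tafa1* and *Tafa2*, which also had *Tfap2d* among its leading genes. The other IPC-like and projection neuron-like clusters did not pass 2.20 CPM in either replicate. An RGC-like cluster led by *Cenpa* and *Cdc20* had 3.28 CPM in replicate 1 and 0 in replicate 3. *Bmp7* (chr2:172868012-172940321), the last ligand of that group measured here, was at 307.2 and 248.8 CPM in meningeal-like cells. In the hem and choroid plexus cluster its replicates lay far apart, at 13.2 and 97.3 CPM. Cajal-Retzius-like cells had 11.1 and 14.5 CPM and RGC-like cells 3.99 and 4.55 CPM. Pericyte-like and endothelial-like cells had 0.

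Detection per cell was compared after thinning each cell to 1500 UMIs, since depth differs between classes. *Bmp6* then had a UMI in 58.3% of 48 meningeal-like cells in replicate 1 (95% Wilson interval 44.3% to 71.2%) and in 36.9% of 141 in replicate 3 (29.4% to 45.1%). In red blood cell-like cells, which should lack this ligand, it was found in 0 of 102 and 0 of 138 cells, which allows shares of up to 2.94% and 2.17%, and in projection neuron-like cells the shares were 0.133% and 0.0766%. *Bmp7* was found in 33.3% and 34.8% of meningeal-like cells against 0.0443% and 0.268% of projection neuron-like cells. For *Bmp5* the shares were 25% and 27% of meningeal-like cells and 15.4% and 11.1% of pericyte-like cells, against 0 of 2257 and 0.115% of projection neuron-like cells. Median depths before thinning were 14110.5 and 11306 UMIs in meningeal-like, 11775 and 11390.5 in projection neuron-like, and 4101 and 3277 in red blood cell-like cells. Intervals cover counting error only. The red blood cell-like class was mixed. A cluster of 45 and 44 of its cells had *Pf4*, *Cxcl14* and *Krt14* beside globin genes among its leading genes. It had 4 RGC and 5 projection neuron markers on, so levels of this class, here and below, can include RNA of other cells. The share of such RNA was not tested.

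**Figure D1:**
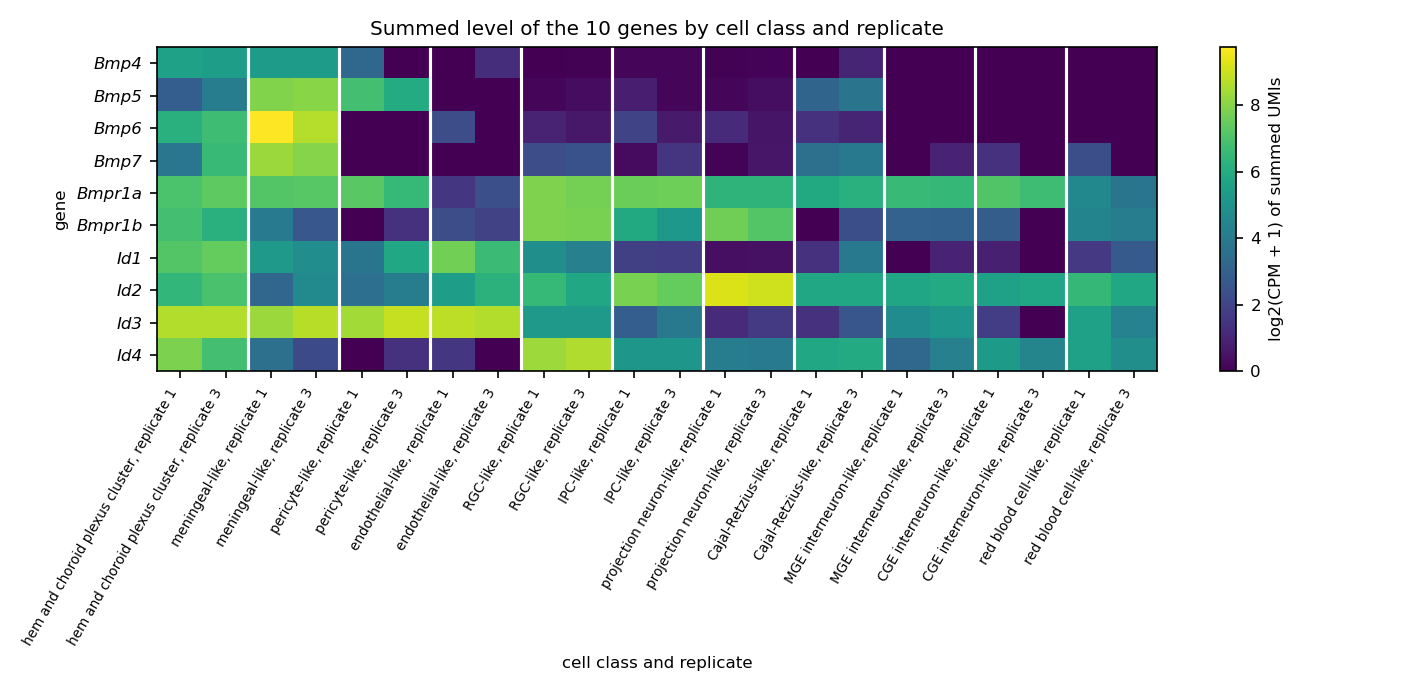
Level of each of the 10 genes (rows) in 11 classes, with replicates 1 and 3 side by side (columns); the colour is log2(CPM + 1) of the UMIs summed over the cells of a class. The 4 ligand genes are bright in the meningeal-like columns, where *Bmp6* reaches 860.0 and 405.6 CPM, while *Bmpr1a* is bright in most classes and dark in endothelial-like cells, at 1.94 and 4.23 CPM.

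Against RGC-like cells, 9 of the 10 genes passed the threshold in meningeal-like cells (adjusted p under 0.05), where 48.1% of all 12610 genes tested did. *Bmp6* was higher by 9.27 ± 0.56 on the log2 scale (SE, adjusted p = 5.27e-09), *Bmp5* by 8.84 ± 0.38 (adjusted p = 1.48e-10) and *Bmp7* by 5.92 ± 0.38 (adjusted p = 2.09e-09). Among the Id genes, *Id3* was higher, by 3.31 ± 0.29 (adjusted p = 3.25e-08), and *Id4* was lower, at −5.76 ± 0.34 (adjusted p = 1.57e-10). The type I receptors were both lower in meningeal-like cells, *Bmpr1b* strongly (−4.64 ± 0.38, adjusted p = 1.19e-08) and *Bmpr1a* slightly (−0.57 ± 0.18, adjusted p = 0.0135). *Id1* was close between the classes (0.44, adjusted p = 0.407). The *Id2* difference of −1.95 ± 0.33 (adjusted p = 9.18e-05) rested on the doublet filter: with predicted doublets kept it was −0.35 (adjusted p = 0.474), and the meningeal-like level went from 8.42 and 23.8 CPM to 43.1 and 73.3 CPM. The *Bmpr1a* difference also missed the threshold with doublets kept (adjusted p = 0.0806). Replicate 1 alone and replicate 3 alone gave −3.85 and −5.26 for *Bmpr1b*, −4.75 and −6.58 for *Id4*, and −3.35 and −1.22 for *Id2*.

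Of the 49 other pathway genes, 31 were expressed enough to be tested between classes. In meningeal-like against RGC-like cells, 9 of the 31 were higher and 8 lower, with a median log2 fold change of −0.06 beside −0.08 over all genes. *Msx1*, a homeobox target of BMP signalling, was at 141.7 and 149.1 CPM in meningeal-like cells against 0.613 and 1.52 CPM in the other class (6.62 ± 0.37, adjusted p = 4.02e-10). *Nbl1*, which encodes a secreted BMP antagonist, was higher by 6.10 ± 0.30 (adjusted p = 2.07e-11). *Bmper*, which encodes an extracellular BMP-binding modulator, reached 214.6 and 171.6 CPM in the RGC-like class but 0 and 3.56 CPM in meningeal-like cells (adjusted p = 3.26e-08).

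Meningeal-like and pericyte-like cells both had *Bmp5* and *Id3* RNA, at unlike levels of *Bmp5*, and differed in the other ligands. Their markers overlapped in part. The pericyte-like cluster had 5 meningeal markers on, and the meningeal-like cluster had 3 pericyte markers on. Of the 10 genes 4 passed the test between them, against 16.7% of all genes. *Bmp6* was at least 194-fold and *Bmp7* at least 95.7-fold higher in meningeal-like cells, as bounds against 3 UMIs over the pericyte-like sums, which held 0. *Bmp5* was higher in meningeal-like cells by 1.56 ± 0.30 (adjusted p = 0.00191) and *Bmp4* by 3.34 ± 0.74 (adjusted p = 0.00488). The *Bmp4* value was 2.23 in replicate 1 alone and 6.87 in replicate 3 alone. *Id3* was at 314.2 and 412.2 CPM against 337.1 and 474.0 CPM, and these ranges overlapped (−0.11, adjusted p = 0.866). Among the 31 pathway genes 5 were higher and 4 lower in meningeal-like cells, with a median of 0.18 beside 0.08 over all genes. *Msx1* had 1 UMI in pericyte-like cells, *Chrd*, which encodes the antagonist chordin, had 0 there and 37 in meningeal-like cells, and *Eng*, which encodes the coreceptor endoglin, was lower in meningeal-like cells (−2.26 ± 0.45, adjusted p = 0.00156).

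Endothelial-like cells had little of the 2 type I receptors measured and much *Id1* and *Id3*. *Bmpr1a* was at 1.94 and 4.23 CPM there, the lowest of the 11 classes. The mixed red blood cell-like class was at 22.4 and 13.0 CPM. *Bmpr1b* was at 3.88 and 2.82 CPM. Against RGC-like cells 5 of the 10 genes passed, beside 44.4% of all genes. *Bmpr1a* was lower, at −5.91 ± 0.35 (adjusted p = 1.82e-10) as was *Bmpr1b*, at −5.96 ± 0.51 (adjusted p = 2.1e-08). In replicate 1 alone the *Bmpr1a* value was −6.64. *Id4* had 1 UMI in endothelial-like cells, and RGC-like cells exceeded them by a ratio of 443 with a counting interval of 79.4 to 17484. *Id3* was higher by 3.47 ± 0.30 (adjusted p = 2.02e-08) and *Id1* by 2.71 ± 0.37 (adjusted p = 8.67e-06). *Id2* did not pass (−0.26, adjusted p = 0.539). No ligand reached 4 CPM in either endothelial-like sum.

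Other receptors of the superfamily were present in these cells. *Acvrl1* encodes ALK1, the type I receptor known from endothelium, and was at 133.7 and 94.5 CPM in endothelial-like cells against 2 UMIs in all RGC-like cells. *Eng* was at 405.1 and 249.7 CPM against 0.307 and 0.202 CPM (9.12 ± 0.42, adjusted p = 6.21e-12). *Bmper* was the third gene named by the rule of largest change, with 0 UMIs in endothelial-like cells. Of the 31 pathway genes 11 were higher and 6 lower than in RGC-like cells, with a median log2 fold change of 0.27 beside −0.23 over all genes.

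Pericyte-like cells differed from RGC-like cells in 7 of the 10 genes, against 39.4% of all genes. *Bmp5* was higher by 7.28 ± 0.42 (adjusted p = 5.01e-09) and *Id3* by 3.42 ± 0.30 (adjusted p = 3.38e-08). *Bmpr1a* was lower by −0.88 ± 0.20 (adjusted p = 0.00145) and *Id2* by −2.40 ± 0.43 (adjusted p = 0.000178). In replicate 1 alone *Bmp5* gave 7.95, and *Id2* gave −3.04 in replicate 1 and −1.81 in replicate 3. *Bmpr1b* and *Id4* had 1 UMI each in pericyte-like cells, with ratios of RGC-like to pericyte-like cells of 244 (43.8 to 9654) and 390 (70.0 to 15401). The called difference in *Bmp4* (3.42 ± 0.84, adjusted p = 0.00437) came from 4 UMIs in replicate 1, and without replicate 1 the value was −0.19. *Id1* was at 13.0 and 55.2 CPM, on both sides of the RGC-like levels of 28.1 and 18.1 CPM (0.65, adjusted p = 0.302). Of the pathway genes 7 were higher and 9 lower, with a median of −0.31 beside −0.20 over all genes. *Eng* (6.94 ± 0.48, adjusted p = 1.79e-09) was higher, *Acvrl1* was at 19.4 and 27.6 CPM, and *Nog*, which encodes the antagonist noggin, was at 0 UMIs against 19.3 and 15.5 CPM in RGC-like cells.

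Directly between the vessel classes, 4 of the 10 genes passed, against 20.8% of all genes. *Id1* was higher in endothelial-like than in pericyte-like cells (2.05 ± 0.47, adjusted p = 0.00383), as was *Id2* (2.14 ± 0.48, adjusted p = 0.00314). Replicate 1 set most of the *Id1* difference, with 205.5 against 13.0 CPM and a value of 3.96, while replicate 3 had 98.7 against 55.2 CPM and a value of 0.88. *Bmpr1a* was lower (−5.03 ± 0.40, adjusted p = 3.95e-08), with −6.04 in replicate 1 alone and −4.30 in replicate 3 alone. *Bmp5* was at least 34.4-fold lower, since no UMI was found. *Id3* was at 434.2 and 396.4 CPM in endothelial-like and 337.1 and 474.0 CPM in pericyte-like cells, and these overlapped (0.05, adjusted p = 0.964). Of the pathway genes 11 were higher and 5 lower in endothelial-like cells, with a median of 0.71 beside 0 over all genes. *Bambi*, which encodes a pseudoreceptor that inhibits the pathway, was higher in endothelial-like cells (5.09 ± 0.52, adjusted p = 8.99e-07). *Nbl1* and the ligand gene *Gdf11* had 1 UMI each in endothelial-like cells.

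**Figure D2:**
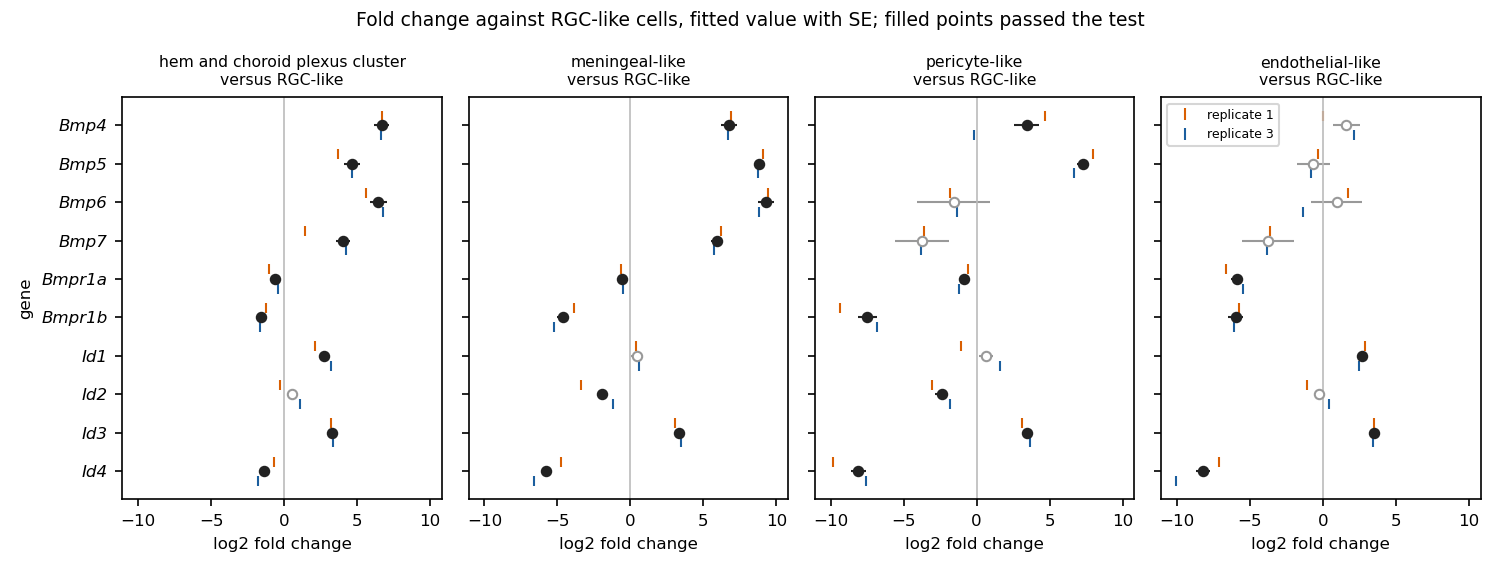
Log2 fold change of each gene (rows) in the hem and choroid plexus cluster, meningeal-like, pericyte-like and endothelial-like cells against RGC-like cells (panels). Points are the edgeR estimates with their SE, filled where the adjusted p was under 0.05, and ticks are the values from replicate 1 and replicate 3 alone; *Id3* lies between 3.28 and 3.47 in all 4 panels.

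The hem and choroid plexus cluster held ligand, receptor and Id gene RNA as a sum over its cells, and their presence in the same cells was not tested. It was compared with RGC-like cells as a comparison chosen after the data were seen, because the planned hem-like and choroid plexus-like classes were not obtained in the main clustering and had under 20 cells in replicate 1 under the alternatives. In it 9 of the 10 genes passed, against 29.9% of 12943 genes. *Bmp6* was higher by 6.46 ± 0.58 (adjusted p = 6.83e-07), *Bmp5* by 4.65 ± 0.58 (adjusted p = 1.83e-05) and *Bmp7* by 4.03 ± 0.47 (adjusted p = 4.73e-06). The *Bmp4* ratio was 1299 (225 to 52087), against 1 UMI in RGC-like cells. *Id1*, at 138.7 and 172.4 CPM, was higher by 2.75 ± 0.36 (adjusted p = 9.49e-06), and *Id3*, at 396.3 and 389.9 CPM, by 3.28 ± 0.30 (adjusted p = 1.56e-07). *Id4* was lower by −1.39 ± 0.27 (adjusted p = 0.000593) and *Bmpr1b* by −1.58 ± 0.31 (adjusted p = 0.000616). *Bmpr1a* was lower by −0.64 ± 0.21 (adjusted p = 0.0239), but this call was lost under 5 alternatives, with adjusted p-values of up to 0.139. *Id2* did not pass (0.55, adjusted p = 0.176). Replicate 1 gave 13 of the 101 cells, and alone it gave 3.67 for *Bmp5*, 5.63 for *Bmp6*, 1.46 for *Bmp7*, 2.11 for *Id1* and −0.69 for *Id4*.

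Of the 34 pathway genes tested beside this cluster, 7 were higher and 5 lower than in RGC-like cells, with a median of −0.07 beside −0.08 over all genes. *Sostdc1*, which encodes a secreted BMP and Wnt antagonist, was at 118.9 and 298.8 CPM against 0.204 and 0.253 CPM (8.51 ± 0.61, adjusted p = 8.09e-08). *Msx1* was higher by 6.46 ± 0.36 (adjusted p = 2.11e-09), and *Gdf5*, a further ligand gene, by 5.13 ± 0.61 (adjusted p = 2.72e-05).

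Between meningeal-like cells and this cluster 7 of the 10 genes passed, against 26% of all genes, again in a comparison chosen after the data were seen. The ligands *Bmp5* (4.10 ± 0.40, adjusted p = 1.63e-06), *Bmp6* (2.77 ± 0.45, adjusted p = 0.000263) and *Bmp7* (1.88 ± 0.42, adjusted p = 0.00283) were higher in meningeal-like cells. The *Bmp7* difference, whose replicates lay apart in the cluster, had an adjusted p of 0.197 with DESeq2 and was 4.72 in replicate 1 alone. In replicate 1 alone *Bmp5* gave 5.29 and *Id1* −1.69, and *Bmp6* gave 3.78 in replicate 1 and 2.01 in replicate 3. *Id1* was lower in meningeal-like cells by −2.31 ± 0.42 (adjusted p = 0.000358), *Id4* by −4.36 ± 0.42 (adjusted p = 2.65e-07) and *Bmpr1b* by −3.05 ± 0.45 (adjusted p = 3.86e-05). *Id2* was lower by −2.51 ± 0.37 (adjusted p = 4.22e-05), with the same dependence on the doublet filter as above (−0.84, adjusted p = 0.178). Of 34 pathway genes 6 were higher and 6 lower, with a median of 0.02 beside 0.01 over all genes. *Sostdc1* had 3 UMIs in meningeal-like cells, and *Gdf5* and *Msx2*, another homeobox target, had 0.

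The cells of the cluster were also parted by whether they held more UMIs of the choroid plexus markers or of the hem markers, a split made after the data were seen. In replicate 3 this gave 44 cells on each side, and 3 of those cells lay within 2-fold of the cut. In replicate 1 it gave 10 cells on the hem side and 3 on the choroid plexus side, too few to read, so the values are from replicate 3 alone and were not tested. *Bmp4* was at 67.9 CPM on the choroid plexus side and 10.8 CPM on the hem side, and *Bmp7* at 122.5 and 63.1 CPM. *Bmp6* was similar, at 98.5 and 115.5 CPM. *Id3* went the other way, with 714.5 CPM on the hem side and 150.4 CPM on the choroid plexus side, as did *Id4* (211.1 and 38.6 CPM), *Id2* (196.7 and 70.6 CPM) and *Bmpr1b* (115.5 and 38.6 CPM). *Id1* was near the same level on both (157.0 and 183.7 CPM).

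**Figure D3:**
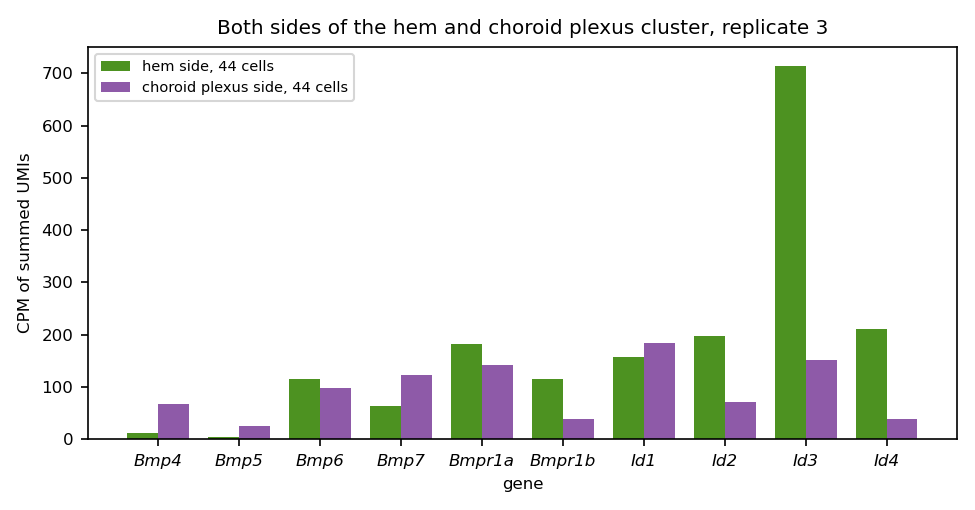
CPM of each gene on the hem side and the choroid plexus side of the hem and choroid plexus cluster, with 44 cells on each side. Only replicate 3 is shown. In replicate 3 *Bmp4* is higher on the choroid plexus side and *Id3*, *Id4* and *Id2* on the hem side.

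*Bmpr1a* (chr14:34411061-34503336) and *Bmpr1b* (chr3:141837135-142169585) encode ALK3 and ALK6, which are among the type I receptors for BMPs, and they differed in breadth. *Bmpr1a* was above 60 CPM in both replicates of 9 of the 11 classes. RGC-like cells were highest (230.6 and 210.7 CPM), followed by IPC-like (189.8 and 193.5 CPM) and meningeal-like cells (140.3 and 147.3 CPM), and projection neuron-like cells reached 79.2 and 81.1 CPM. The ranges of meningeal-like, hem and choroid plexus, pericyte-like and CGE classes overlapped with their neighbours in this order. *Bmpr1b* was highest in RGC-like cells (233.9 and 222.9 CPM) and next in projection neuron-like cells (196.1 and 141.9 CPM), while IPC-like cells, between them in lineage, stood at 60.2 and 36.2 CPM. It was at 7.44 and 7.21 CPM in MGE cells, 0 and 4.14 CPM in Cajal-Retzius-like cells and 0 and 1.62 CPM in pericyte-like cells, all below the red blood cell-like level of 20.3 and 15.9 CPM. After thinning to 1500 UMIs, *Bmpr1b* had a UMI in 25.8% and 24.8% of RGC-like, 20% and 16% of projection neuron-like, and 0.98% and 0.725% of red blood cell-like cells, whose median depth was 4101 and 3277 UMIs.

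The Id genes split into a pair with its highest levels outside the neuronal lineage and a pair with its highest levels inside it. RGC-like cells, being more numerous, still held 57.1% and 44.2% of all *Id1* UMIs. *Id1* (chr2:152736251-152737410) was highest in the hem and choroid plexus cluster (138.7 and 172.4 CPM) and endothelial-like cells (205.5 and 98.7 CPM), which overlapped, followed by pericyte-like, meningeal-like (36.5 and 26.7 CPM) and RGC-like cells (28.1 and 18.1 CPM). *Id3* (chr4:136143822-136145392) was between 314 and 474 CPM in both replicates of the endothelial-like, pericyte-like and meningeal-like classes and the hem and choroid plexus cluster, where each overlapped its neighbour in the order, and at 38.0 and 37.2 CPM in RGC-like cells. *Id2* (chr12:25093799-25096092) was highest in projection neuron-like cells (598.2 and 520.4 CPM), then in IPC-like cells (221.8 and 173.1 CPM), with pericyte-like (10.8 and 16.2 CPM) and meningeal-like cells (8.42 and 23.8 CPM) lowest and overlapping. *Id4* (chr13:48261116-48266028) was highest in RGC-like cells (321.1 and 381.3 CPM), then in the hem and choroid plexus cluster (224.6 and 111.8 CPM).

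Thinned to 1500 UMIs, *Id4* had a UMI in 36.5% and 42.1% of RGC-like cells, and *Id2* in 49.9% and 46.9% of projection neuron-like cells. *Id3* had a UMI in 44% and 36% of endothelial-like, 38.5% and 37.8% of pericyte-like and 52.1% and 33.3% of meningeal-like cells, against 0.266% and 0.268% of projection neuron-like cells. In red blood cell-like cells the *Id2* share was 9.8% and 10.1%. The *Id2* shares of Cajal-Retzius-like cells (10.3% and 7.59%), MGE cells (7.51% and 11%) and endothelial-like cells (4% and 14%) lay around that level, while in meningeal-like cells the share was 2.08% and 2.84%. For *Id4* the share was 5.59% and 4.69% in IPC-like and 4.9% and 5.8% in red blood cell-like cells, and 0 in 84 pericyte-like cells.

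The 3 Id genes *Id2*, *Id3* and *Id4* have a start site in RefSeq's promoter table for GRCm38.p6, the build of the deposited data, and their 250 bases upstream are shown because SMAD proteins are known to bind such sequences. Both strands were searched for GGCGCC, a sequence bound by SMADs of the BMP branch, and for CAGAC with its complement GTCTG, the shared SMAD-binding element. Matches are in capitals, each sequence reads 5' to 3' on the gene's strand, and the last base adjoins the start site.

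*Id2*, chr12:25096093-25096342, minus strand: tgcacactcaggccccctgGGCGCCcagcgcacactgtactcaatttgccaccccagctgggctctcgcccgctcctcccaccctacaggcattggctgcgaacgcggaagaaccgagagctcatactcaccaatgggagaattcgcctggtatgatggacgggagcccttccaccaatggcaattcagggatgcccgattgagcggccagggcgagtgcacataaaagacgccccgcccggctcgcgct
*Id3*, chr4:136143572-136143821, plus strand: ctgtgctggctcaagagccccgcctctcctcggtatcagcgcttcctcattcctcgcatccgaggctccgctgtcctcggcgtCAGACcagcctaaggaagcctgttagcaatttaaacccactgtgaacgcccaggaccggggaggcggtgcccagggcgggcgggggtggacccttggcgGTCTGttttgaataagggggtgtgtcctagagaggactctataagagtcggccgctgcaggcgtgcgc
*Id4*, chr13:48260866-48261115, plus strand: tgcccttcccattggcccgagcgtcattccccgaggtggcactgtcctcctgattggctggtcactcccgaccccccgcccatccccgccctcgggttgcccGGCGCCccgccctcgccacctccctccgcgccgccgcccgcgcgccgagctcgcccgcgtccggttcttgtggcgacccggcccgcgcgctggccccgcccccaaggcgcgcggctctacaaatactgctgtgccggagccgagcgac

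GGCGCC lay 231 bases before the start of *Id2* and 148 bases before that of *Id4*, and was also found upstream of *Bmpr1a*. The 10 promoters that matched 8 of the genes held it in 3 cases, and 9.59% of all 32851 promoters in the table held it. The CAGAC element lay 167 and 68 bases before the start of *Id3*. It was in 5 of the 10 promoters, those of *Bmp5*, *Bmp6*, *Bmpr1b* and *Id3*, and in 42.2% of all promoters. The upstream bases of *Id2*, *Id3* and *Id4* had a GC content of 62.8%, 62.8% and 75.6%, against a median of 52.4% over all promoters. A match is a string of letters only, and binding was not measured.

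Along the cortical neuron lineage, from RGC-like through IPC-like to projection neuron-like cells, the Id genes and receptors followed separate courses. Between RGC-like and IPC-like cells 6 of the 10 genes passed, against 39.3% of all genes. *Id4* fell from 321.1 and 381.3 CPM to 34.6 and 34.7 CPM (RGC-like over IPC-like 3.30 ± 0.22, adjusted p = 2.49e-09). *Id1* was higher in RGC-like cells by 3.02 ± 0.40 (adjusted p = 7.46e-06), *Id3* by 1.77 ± 0.29 (adjusted p = 6.95e-05; 2.46 in replicate 1 alone) and *Bmpr1b* by 2.22 ± 0.25 (adjusted p = 1.16e-06). The *Id3* value was set by 1 IPC-like cluster, led by *Rmst*, *Tmem132c* and *Adamts19*, which also had 7 RGC markers on. Without this cluster IPC-like *Id3* was at 0.785 and 2.32 CPM against 38.0 and 37.2 CPM in the RGC-like class. *Id2* was lower in RGC-like cells (−1.44 ± 0.25, adjusted p = 0.000136), with 91.8 and 57.0 CPM against 221.8 and 173.1 CPM. *Bmp7* was higher in RGC-like cells by 1.60 ± 0.43 (adjusted p = 0.00731), a call that DESeq2 (adjusted p = 0.0596), a fit of the 2 classes alone (0.0727) and a stricter cell filter (0.0540) each lost, and which was 2.91 in replicate 1 alone. *Bmpr1a* did not pass (0.18, adjusted p = 0.444). *Bmp6*, at no more than 3.02 CPM in either class, did not pass either (−0.94, adjusted p = 0.265), but passed with the replicate number as a block (−0.83, adjusted p = 0.0482). Its IPC-like UMIs came largely from the *Tfap2d* cluster above.

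Among the 31 pathway genes, RGC-like cells had 9 at a higher and 3 at a lower level than IPC-like cells, with a median of −0.04 beside 0.03 over all genes. *Nog* was higher by 3.87 ± 0.37 (adjusted p = 5.18e-07), with 19.3 and 15.5 CPM against 0.971 and 0.746 CPM. *Fst*, which encodes the antagonist follistatin, was higher by 2.33 ± 0.41 (adjusted p = 0.000229), and *Rgma*, which encodes a BMP coreceptor, by 2.71 ± 0.27 (adjusted p = 2.83e-07).

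Between IPC-like and projection neuron-like cells 6 of the 10 genes passed, against 39.3% of all genes. *Bmpr1b* was lower in IPC-like cells by −1.98 ± 0.24 (adjusted p = 2.82e-06) and *Id2* by −1.67 ± 0.25 (adjusted p = 2.32e-05), while *Bmpr1a* was higher by 1.09 ± 0.17 (adjusted p = 4.02e-05). *Id3* (2.24 ± 0.31, adjusted p = 1.05e-05), *Id1* (1.93 ± 0.45, adjusted p = 0.00184) and *Id4* (0.97 ± 0.21, adjusted p = 0.000988) were higher in IPC-like cells in the same fit, but these 3 calls depended on which cells the class held. *Bmp7* narrowly missed the threshold (1.16, adjusted p = 0.0506) and passed with the replicate number as a block (adjusted p = 0.0452).

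Most of the IPC-like *Id3* lay in 1 cluster of 28 and 114 cells led by *Rmst*, *Tmem132c* and *Adamts19*. It had 7 RGC and 3 hem markers on beside 8 IPC markers. With predicted doublets kept, and at a coarser cluster resolution, these genes were among the leading ones of an RGC-like cluster, so its name was not stable. In the IPC-like cluster *Id3* was at 153.0 and 130.7 CPM and *Id4* at 135.7 and 168.9 CPM. Without that cluster, IPC-like cells had *Id3* at 0.785 and 2.32 CPM and *Id4* at 30.7 and 21.1 CPM, beside projection neuron-like levels of 1.32 and 2.17 CPM for *Id3*. When predicted doublets were kept, the *Id3* difference between IPC-like and projection neuron-like cells was −0.97 (adjusted p = 0.0846), and at a coarser cluster resolution it was −0.48 (adjusted p = 0.348). *Id4* gave −0.19 (adjusted p = 0.609) and 0.34 (adjusted p = 0.342) under the same settings, and *Id1* lost its call with doublets kept (0.77, adjusted p = 0.197). Of the 31 pathway genes 5 were higher and 4 lower in IPC-like than in projection neuron-like cells, with a median of 0.08 beside −0.01 over all genes. *Bmper* was higher (2.94 ± 0.29, adjusted p = 2.93e-07), and *Fst* (−1.60 ± 0.40, adjusted p = 0.00418) and *Acvr1*, which encodes the type I receptor ALK2 (−1.44 ± 0.16, adjusted p = 6.13e-07), were lower.

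**Figure D4:**
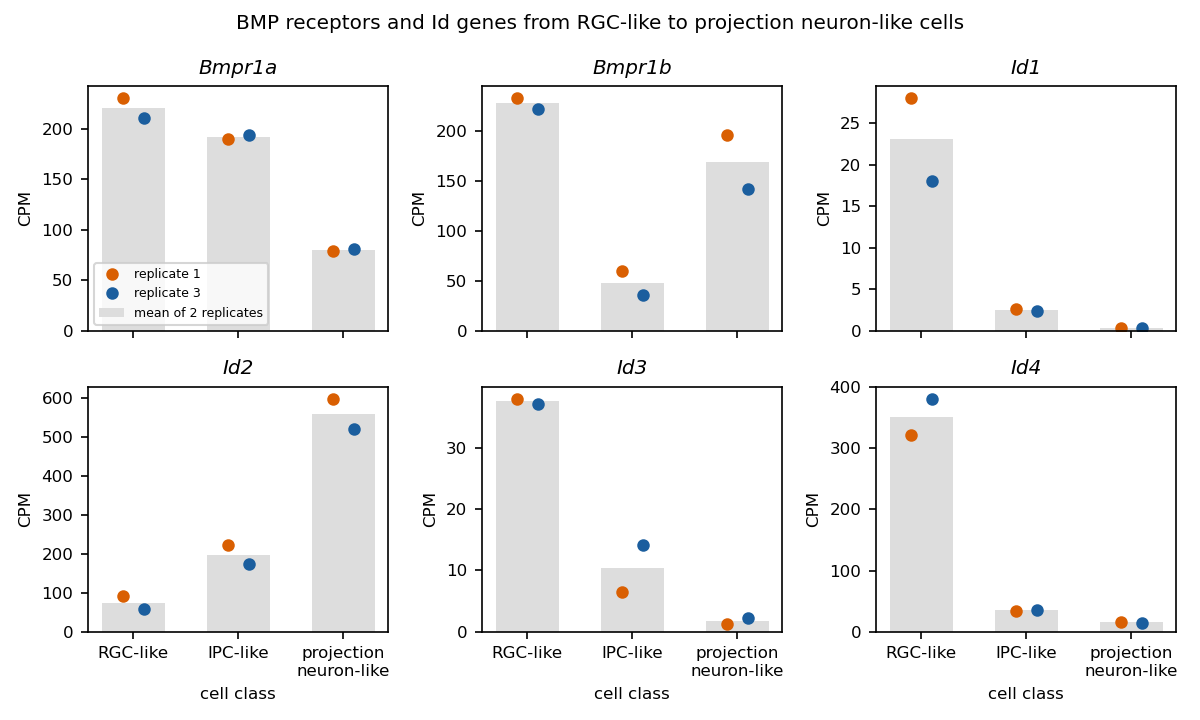
CPM of the receptor and Id genes in RGC-like, IPC-like and projection neuron-like cells (horizontal axis), with 1 point per replicate. Bars are the mean over replicates. *Id4* drops after RGC-like cells, *Id2* rises at each step to 598.2 and 520.4 CPM, and *Bmpr1b* is lowest in IPC-like cells, at 60.2 and 36.2 CPM.

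Within projection neuron-like cells *Bmpr1b* and *Id2* varied between clusters. *Bmpr1b* ranged from 13.8 and 15.8 CPM in a cluster led by *Luzp2* and *Pcp4* (102 and 282 cells) to 501.8 and 385.7 CPM in one led by *Cdh12* (341 and 215 cells). *Id2* was highest in a cluster led by *Pcsk2* and *Opcml* (977.7 and 698.6 CPM) and lowest in one led by *Cdh18* and *Kcnab1* (275.6 and 244.6 CPM). The order of clusters was read from the same cells, so these are descriptions.

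Cajal-Retzius cells, early neurons of the marginal zone that arise in part from the hem, were set against projection neuron-like cells. Here 6 of the 10 genes passed, against 24.7% of all genes. *Bmp7* was higher in Cajal-Retzius-like cells by 4.23 ± 0.68 (adjusted p = 0.000191) and *Bmp5* by 4.15 ± 0.58 (adjusted p = 9.32e-05), from levels below 1 CPM in projection neuron-like cells. *Id4*, at 55.5 and 61.0 CPM against 16.6 and 14.7 CPM, was higher by 1.63 ± 0.26 (adjusted p = 0.000126). *Id1* was higher by 3.61 ± 0.77 (adjusted p = 0.0017), with replicates at 1.59 and 14.5 CPM and a value of 1.39 in replicate 1 alone. *Bmpr1b* was lower by −6.14 ± 0.50 (adjusted p = 4.14e-08) and *Id2* by −3.54 ± 0.30 (adjusted p = 7.1e-08). The *Bmpr1b* value was −9.33 in replicate 1, where no UMI was found, and −5.25 in replicate 3. *Bmpr1a* (−0.51, adjusted p = 0.0768) and *Id3* (0.74, adjusted p = 0.552) did not pass. Of the pathway genes 9 were higher and 5 lower, with a median of 0.07 beside −0.05 over all genes, led by *Bambi* (3.57 ± 0.54, adjusted p = 6.87e-05), the coreceptor gene *Rgmb* (2.27 ± 0.18, adjusted p = 2.85e-08) and *Fst* (2.19 ± 0.43, adjusted p = 0.00123).

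MGE interneuron-like cells differed from projection neuron-like cells in 3 of the 10 genes, against 29.6% of all genes. *Id3* was higher, by 3.78 ± 0.37 (adjusted p = 4.64e-07), at 25.8 and 34.3 CPM against 1.32 and 2.17 CPM. Of the classes of like depth, red blood cell-like cells had 46.7 and 18.8 CPM, CGE cells held 3 and 0 UMIs, and the LGE-like cells of replicate 1 held no *Id3* UMI. The thinned *Id3* shares were 3.9% and 4.13% in MGE cells and 2.94% and 4.35% in red blood cell-like cells. *Bmpr1b* (−4.53 ± 0.37, adjusted p = 4.15e-08) and *Id2* (−3.38 ± 0.29, adjusted p = 6.68e-08) were lower, and *Id4* did not pass (−0.39, adjusted p = 0.387). The median depth was 4519 and 4018.5 UMIs in MGE cells and 11775 and 11390.5 UMIs in projection neuron-like cells, and the part of depth in these differences was not tested. Of the 31 pathway genes 7 were higher and 2 lower, with a median of 0.28 beside −0.04 over all genes. *Bmper* (4.15 ± 0.32, adjusted p = 3.35e-08) and *Rgmb* (1.69 ± 0.18, adjusted p = 8.54e-07) were higher, and *Fst* had 1 UMI in MGE cells.

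RGC-like cells were also parted by cell cycle phase, scored from lists of 43 genes for S and 54 for G2M after thinning to 3000 UMIs, which left 247 and 496 cells in G1, 185 and 451 in S, and 272 and 598 in G2M. Of the 10 genes 7 had enough counts to be tested, the exceptions being *Bmp4*, *Bmp5* and *Bmp6*. *Id3* was the member that passed in each contrast, against 11.7% of 12648 genes for S and 10.4% for G2M. Its level was 28.0 and 20.1 CPM in G1, 46.9 and 35.3 CPM in S, and 39.2 and 47.6 CPM in G2M. The G1 values lay below all others (S over G1 0.81 ± 0.21, adjusted p = 0.0456; G2M over G1 0.93 ± 0.20, adjusted p = 0.0263). The S call was lost with library sizes alone (adjusted p = 0.0555), with DESeq2 (0.0609) and in a fit of the 2 phases alone (0.0540). The RGC-like clusters also differed in phase genes. The one led by *Tshr* and *Smoc1*, with no phase genes among its leading ones, had *Id3* at 16.6 and 13.0 CPM and *Id1* at 10.6 and 14.6 CPM, and the one led by histone genes such as *Hist1h1b* had *Id3* at 55.2 and 39.5 CPM. The part of the clusters in the phase differences was not tested.

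*Id1* was at 13.1 and 10.3 CPM in G1, 38.2 and 17.1 CPM in S, and 30.8 and 22.7 CPM in G2M, with no overlap between G1 and the other phases. It did not pass without the replicate block (S 1.21 ± 0.38, adjusted p = 0.0846; G2M 1.22 ± 0.37, adjusted p = 0.0805), and passed with it (1.13, adjusted p = 0.00115, and 1.20, adjusted p = 0.000382). *Bmp7* behaved likewise at a lower level, from 0.374 and 1.85 CPM in G1 to 3.82 and 7.20 CPM in S and 5.85 and 4.34 CPM in G2M (S 1.92 ± 0.52, adjusted p = 0.0551; G2M 1.72 ± 0.52, adjusted p = 0.0787), with blocked adjusted p-values of 0.00765 and 0.0136. *Id4* stayed within 306 and 402 CPM over the phases, and its differences did not pass (S 0.08, adjusted p = 0.784; G2M −0.08, adjusted p = 0.808). Under the block the number of all genes past the threshold rose from 1482 to 3540 for S and from 1319 to 3571 for G2M. Of 29 pathway genes, *Acvr2a*, which encodes a type II receptor, passed in each contrast and was lower than in G1 (S −0.69 ± 0.11, adjusted p = 0.00703; G2M −0.42 ± 0.10, adjusted p = 0.0409).

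**Figure D5:**
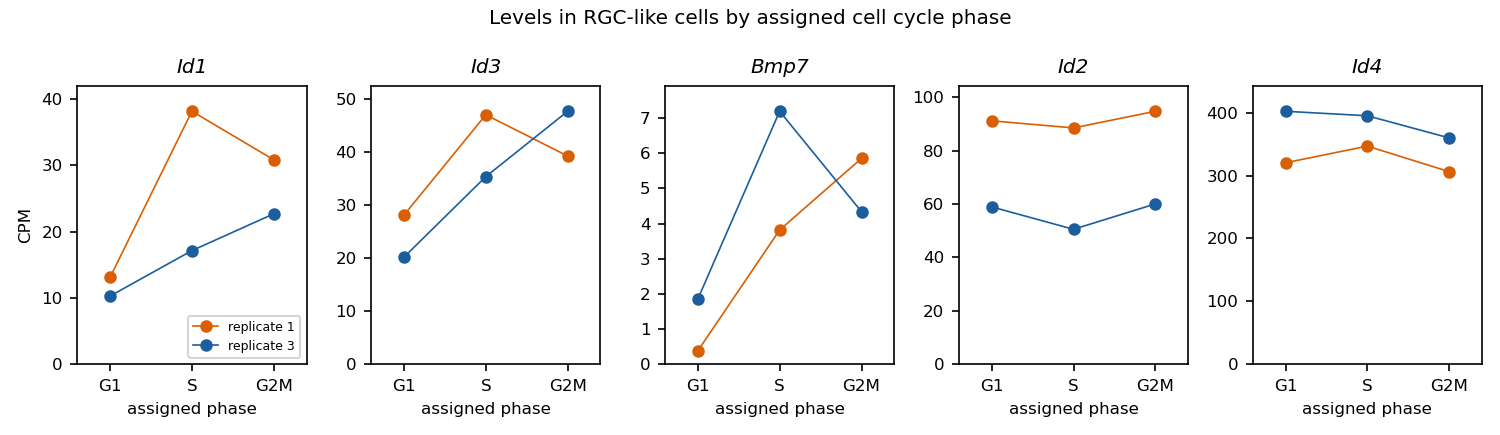
CPM of *Id1*, *Id3*, *Bmp7*, *Id2* and *Id4* in RGC-like cells by cell cycle phase (horizontal axis), with the points of each replicate joined by a line. *Id3* is lowest in G1, at 28.0 and 20.1 CPM. *Id4* is lowest in G2M, at 306.2 and 359.9 CPM, but its differences did not pass the test.

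*Id3* was found more often in RGC-like cells with an *Id1* UMI than in those without. At 3000 UMIs per cell, 15.6% and 15.8% of cells with an *Id1* UMI also had an *Id3* UMI, against 5.92% and 6.81% of cells without one. The phase of the cells moves with both genes, as above, and its part in this was not tested.

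The genes whose levels over the 10 classes in the fit were most like those of each member were ranked by the lower of its Pearson correlations in the 2 replicates, on log2(CPM + 1), among 10222 genes. The classes share libraries and depth, and markers used to name them, such as *Neurod2* and *Slc6a13*, were not left out, so these are descriptions. The ligands were nearest to *Col6a1* (r = 0.994 and 0.956), *Cyp1b1* and *Clec3b* for *Bmp4*, to *Pla2r1* (0.947 and 0.952), *Adra2a* and *Twist1* for *Bmp5*, to *C1qtnf7* (0.970 and 0.991), *Lrrc17* and *Col13a1* for *Bmp6*, and to *Crabp2* (0.951 and 0.887), *Slc6a13* and *Wnt4* for *Bmp7*. For the receptors they were *Fads2* (0.946 and 0.955) and *Tspan7* for *Bmpr1a*, and *Lmo1* (0.904 and 0.952), *Sorl1* and *Gm26604* for *Bmpr1b*. For *Id1* they were *Pon2* (0.931 and 0.947), *Gnai2* and *Hspg2*, and for *Id3* *Sparc* (0.956 and 0.942), *Arpc1b* and *Cast*. *Id2* was nearest to the neuronal transcription factor genes *Zbtb18* (0.915 and 0.934) and *Neurod2* and the glutamate transporter gene *Slc17a7*, and *Id4* to *Ntng1* (0.916 and 0.923), *Ckb* and *Fhl1*.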

How the data were processed

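Raw UMI counts per gene and cell barcode, made and deposited by the authors, were used for both libraries. The submitters' processing notes name Cell Ranger 7.0.0 and the build mm10, and whether intronic reads were counted is not given in the sources used here. No other normalisation was applied to the deposited counts. A barcode needed between 1500 and 60000 UMIs, with a mitochondrial share under 10%, and those with the highest scrublet scores, 0.8% per 1000 barcodes, were removed as doublets (4.93% of replicate 1 and 7.09% of replicate 3).

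Cells were clustered in scanpy 1.11.5 (2000 variable genes, 30 components, 15 neighbours, Leiden resolution 2), without the 10 genes and the 49 pathway genes. A cluster took the name of a marker list with at least 3 markers on (scaled level over 0.5 and in at least 10% of cells), unless markers of another class prevailed among its top 10 genes. Counts were summed per class and replicate where each replicate had at least 20 cells, and 20 sums of 10 classes entered 1 fit of edgeR 4.0.16 (TMM factors, filterByExpr, quasi-likelihood test, two-sided, Benjamini-Hochberg adjustment over all genes tested, threshold 0.05, prior count 2). Classes came from the same cells, so counts over all genes are descriptions. The 3 pathway genes named per comparison were those of largest change past the threshold with 1 direction in both replicates. Phase genes were left out of the phase sums. The precision of a sum is set by its UMIs, and a count of 0 was given a limit of 3 UMIs.

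The members, gene lists and comparisons were chosen with earlier results of these data known. Sums of 1 replicate number come from 1 library and are paired by it. The correlation across genes of their replicate differences ran from −0.067 to 0.402 over 45 pairs of classes, with a median of 0.036, and was not computed between phases. The fit without the block was the planned main one, and blocked values stand beside each result whose call they change. Alternatives were library sizes alone, DESeq2 1.42.0, no count filter, the replicate block, a fit of 2 groups alone, doublets kept, a stricter cell filter (3000 UMIs, 5%), resolution 1 and each replicate left out. The test was tested on simulated data. With gene-wise dispersions the share of false calls lay above the threshold there, and with trended dispersions it did not. The default fit so tested was the one used, so adjusted p-values just under 0.05 are less firm than they read. Promoter sequences and coordinates are from RefSeq on GRCm38.p6, the patch release of mm10. *Id1* and *Bmp7* had no entry in the promoter table. Some genes that the naming rules select are not reported here.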

Additional observations from a re-analysis of the deposited data

How the results depend on the processing

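The 87 member tests counted here are all 68 that passed the threshold and 19 that did not but are printed above. Tests that did not pass and are not printed were left out, so these numbers give no pass rate. Of 676 values recomputed under another setting, 624 kept direction and side of the threshold, 24 came to pass it, 19 ceased to and 9 changed sign. With the replicate block 81 of 87 values kept both and 6 came to pass. The sign changed with a stricter cell filter for *Bmp6* (0.50) and *Bmpr1a* (−0.10) between RGC-like and IPC-like cells, for *Id3* between meningeal-like and pericyte-like cells (0.10) and for *Bmp4* between meningeal-like cells and the hem and choroid plexus cluster (0.14, and 0.47 at resolution 1), none of which was past the threshold. With doublets kept, it changed between IPC-like and projection neuron-like cells for *Id3* (−0.97, and −0.48 at resolution 1) and *Id4* (−0.19), and between Cajal-Retzius-like and projection neuron-like cells for *Id3* (−0.044). *Id3* moved with 1 cluster of the IPC-like class. With a replicate left out, 21 of 174 values moved by more than the SD between the replicates' own values. By construction, each replicate's own value lies within that SD of their mean. A value could thus move only where the fitted value departed from that mean, so unmoved values do not show stability. Of the values past the threshold, 1 changed sign with a replicate left out. It was *Bmp4* in pericyte-like against RGC-like cells, with a range of −0.19 to 4.67. The number of all genes past the threshold fell with the stricter cell filter for MGE against projection neuron-like cells (2194, main 3728). For S against G1 it was 974 with DESeq2, 2330 without the count filter and 3540 with the replicate block (main 1482), and for G2M against G1 it was 2171 without the filter and 3571 with the block (main 1319). Cause was not tested in these cases. The median of all genes moved by up to 0.27 with DESeq2 and by up to 0.24 with library sizes alone. DESeq2 was run without the count filter and covered other genes, 16969 against 12610 for endothelial-like against RGC-like cells. Its shift therefore mixes gene set and scaling. No member past the threshold changed direction under either setting. A level or share of cells was counted as moved where its mean changed by more than the SD between replicates. Of 120 levels, 43 moved with doublets kept and 29 under the stricter filter, and 15 of 110 moved at resolution 1. Of 140 shares of cells, 75 moved when cells were thinned to 3000 UMIs and 116 without thinning. Endothelial-like comparisons were not run under the stricter filter, which left too few cells, and counts over all genes cannot be had from 1 replicate. The depth limits *Bmp4* most, with 42 and 131 UMIs in all.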

Other observations

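Outside the classes compared, 1 unnamed cluster held a further site of these genes. It was led by *Cntn3*, *Fgf17* and *Six3* and numbered 8 cells in replicate 1 and 42 in replicate 3. *Bmp7* was at 288.0 and 31.2 CPM in it, *Id3* at 443.1 and 133.2 CPM and *Bmp5* at 66.5 and 5.67 CPM. The replicates lay far apart, and no test was made. The largest unnamed cluster, led by *Unc5d*, *Cdh8* and *Sema3c* (219 and 358 cells), had *Id2* at 351.6 and 403.6 CPM, *Bmpr1b* at 44.8 and 29.9 CPM and *Id4* at 11.7 and 11.2 CPM.

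In the LGE-like cells, 116 cells of replicate 1, *Id4* was at 246.9 CPM and *Bmpr1a* at 113.9 CPM, while *Id3* had 0 UMIs and *Bmpr1b* 3. Microglia-like cells, 19 and 25 in number, held no UMI of the 4 ligand genes, and *Bmpr1a* was at 76.5 and 132.7 CPM in them. The absence of ligands depended on which cells the class held. Under the stricter cell filter it had *Bmp7* at 108.7 CPM and *Bmp5* at 25.1 CPM in replicate 1, and 0 of both in replicate 3.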
